A study of Mus musculus with 6 samples.

Results

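Calmodulin-dependent kinase II (CaMKII), calcineurin, the NFAT transcription factors and the class IIa histone deacetylases carry calcium signals to the nucleus of muscle cells. Their genes were followed here as a set of 10 named genes: Camk2a, Camk2b, Camk2d and Camk2g, Rcan1, Nfatc1 and Nfatc2, and Hdac4, Hdac5 and Hdac9. A member was taken as the probe set whose gene symbol in the platform annotation matched its name, and 9 of the 10 were found among the 19505 genes read on each array. Hdac5 was matched to no probe set, and its expression was not analysed here.

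The study asked how high levels of the myogenic factor MyoD change gene expression in differentiating muscle cells, and used C2C12, a mouse myoblast line whose cells fuse into myotubes when serum is lowered. All cells were placed in 2% horse serum and taken at differentiation day 3, and total RNA was read on Clariom S mouse arrays, with 2 arrays in each of 3 groups. Cells of the MyoD + Dox group carried an integrated lentiviral Myod1 transgene and received doxycycline, which turns the transgene on. Uninduced cells carried the same transgene and received no doxycycline, and non-transduced cells carried no virus but did receive doxycycline. Virally transduced cells were kept in blasticidin according to the methods. Uninduced and non-transduced cells therefore differ in the virus, the selection and the doxycycline together, and these cannot be told apart. Between MyoD + Dox and uninduced cells, the presence of the drug changes along with the activity of the transgene. Between MyoD + Dox and non-transduced cells, the virus and the selection change along with it. No array came from cells given an empty virus and the drug, so neither difference can be assigned to MyoD alone. The sources do not say whether paired arrays were separate cultures, and the p-values cover no more than the spread between arrays, which may be technical.

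A rise of calcium in a muscle cell loads calmodulin, and calcium-loaded calmodulin switches on both CaMKII and the phosphatase calcineurin. Calcineurin strips phosphates from NFAT factors, which then enter the nucleus, and the protein made from Rcan1 binds calcineurin and restrains it. Class IIa histone deacetylases sit on MEF2 factors and hold muscle genes down until kinases of the CaM kinase and protein kinase D families phosphorylate them, after which 14-3-3 proteins keep them in the cytoplasm. In adult muscle the calcineurin and CaM kinase arms are known for slow fibre genes and the class IIa deacetylases for the response to lost nerve supply.

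The arrays were not equally close to their partners. The 2 non-transduced arrays differed by at least 2-fold in 15% of genes, against 3.79% for the uninduced pair and 3.02% for the MyoD + Dox pair, and the mean log2 signal of 10 muscle markers was 13.02 and 14.98 on the non-transduced arrays, 13.12 and 11.44 on the uninduced arrays and 14.24 and 14.53 on the MyoD + Dox arrays. Those markers include Myod1, the gene the lentivirus carries, and without it the means were 13.50 and 15.46 non-transduced, 13.58 and 11.83 uninduced and 14.55 and 14.75 with MyoD + Dox. All 10 were above background in these cells labelled as muscle myoblasts, Myod1 at 11.51 and 12.54 with MyoD + Dox, 9.00 and 7.91 uninduced and 8.72 and 10.68 non-transduced. No measured member of the adipocyte, macrophage or endothelial marker lists was above background, and the macrophage marker Cd68 was not measured. Of the neuron markers 1 of 5 was above background, and of the osteoblast and chondrocyte markers 1 of 5, each on some arrays. Signals are given as log2 of the deposited intensity, and an array's background, the 90th percentile over its background probe sets, stood at 6.01 to 6.15 on that scale. In whole cultures, fewer cells of a type and less RNA per cell cannot be told apart.

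Among the 4 CaMKII genes, Camk2a lay higher with MyoD + Dox than in uninduced cells by 4.29 on the log2 scale. Camk2b was not above background in uninduced cells, and its MyoD + Dox mean was 12.6-fold above that background. The 2 MyoD + Dox arrays of Camk2b stood 7.41-fold apart, a spread that the 12.6-fold value does not cover. Camk2d and Camk2g stayed within a log2 range of 0.80 and 0.76 over all 6 arrays. Rcan1 lay 0.97 higher and Nfatc1 0.46 lower in the same comparison, each without overlap between the groups. Hdac4 and Hdac9 differed by less than 0.1, and Nfatc2 was below background on every array. None of the 9 members passed an adjusted p of 0.05 in this comparison, and neither did any other gene (0% called by limma with Benjamini-Hochberg adjustment over 19505 genes).

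**Figure D1:**
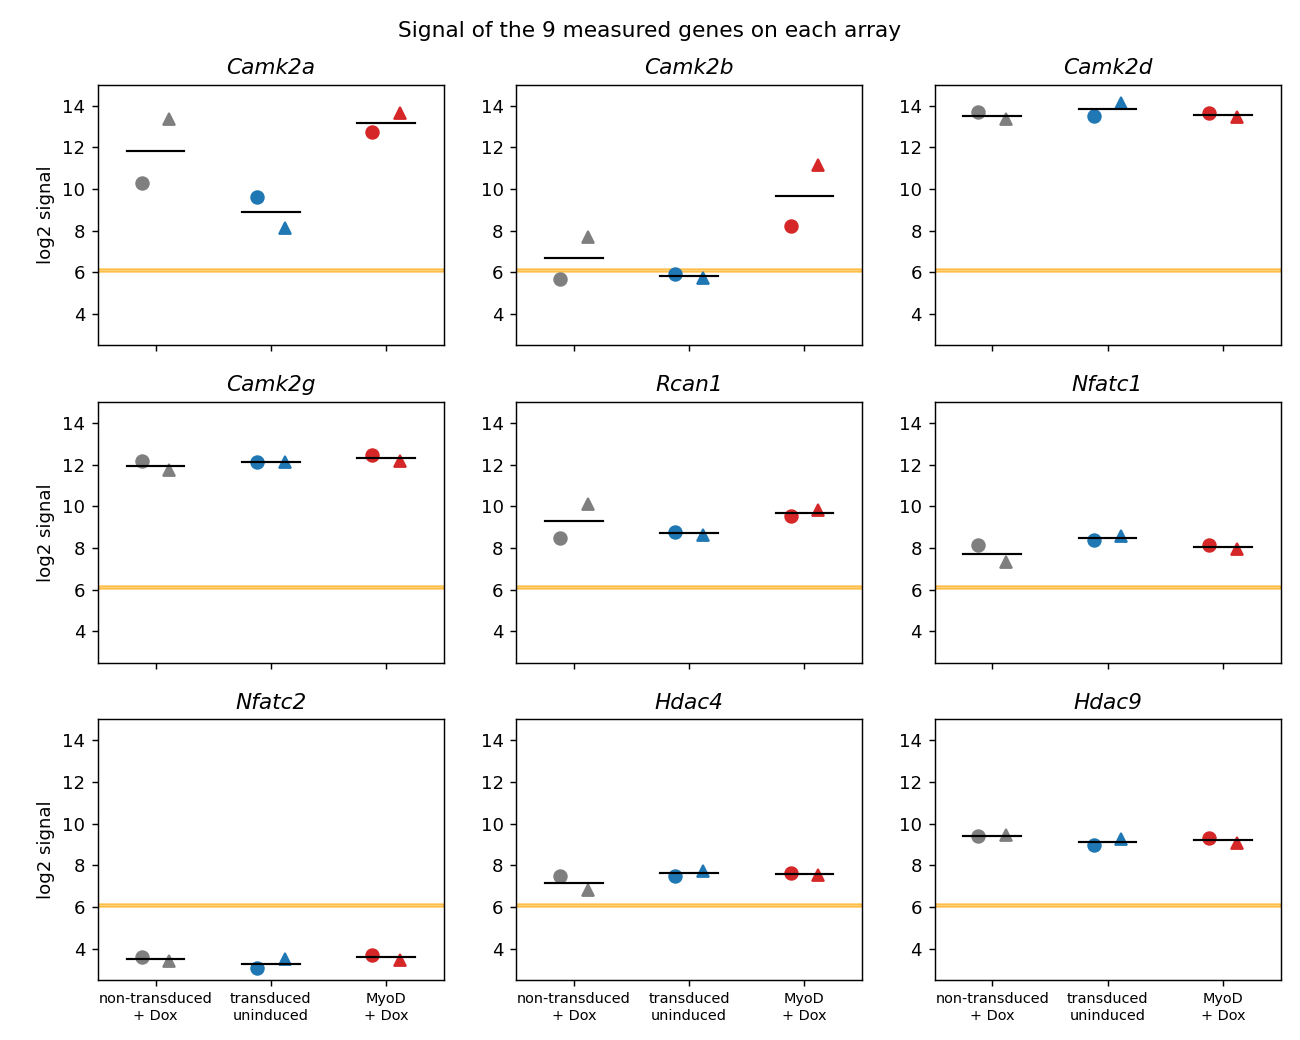
Log2 signal of the 9 measured members on each array, by group. Circles are replicate 1, triangles replicate 2, black lines the mean of the 2 arrays, and the orange band the background of the 6 arrays; Camk2a and Camk2b span 5.49 and 5.46 log2 units over the arrays, and the other 7 members span at most 1.62.

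Camk2a encodes the alpha chain of CaMKII, best known from neurons, and in muscle the same gene also gives alphaKAP, a protein without kinase activity that anchors the holoenzyme to the sarcoplasmic reticulum. Its log2 signal was 12.72 and 13.64 with MyoD + Dox, 9.63 and 8.15 in uninduced cells and 10.31 and 13.34 in non-transduced cells. Every MyoD + Dox array was above both uninduced arrays, but the second non-transduced array lay between the 2 MyoD + Dox arrays and 8.20-fold above its own partner. The files do not say which of these transcripts the probe set reads.

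With MyoD + Dox the mean of Camk2a was 13.18 ± 0.65 (SD, n = 2), against 8.89 ± 1.04 (SD, n = 2) uninduced. The difference of 4.29 on the log2 scale had a standard error of 1.05 and a 95% interval of 1.71 to 6.88, a 19.6-fold difference (limma, unadjusted p = 0.00692, adjusted p = 0.670). Against non-transduced cells, at 11.82 ± 2.15 (SD, n = 2), the difference was 1.36 with an interval of -1.23 to 3.94 (limma, adjusted p = 1), and it turned to -0.16 without the first non-transduced array and became 2.87 without the second. Uninduced minus non-transduced cells gave -2.94 with an interval of -5.52 to -0.35, a 7.65-fold lower signal (limma, unadjusted p = 0.0323, adjusted p = 0.637), and the groups did not overlap. That last difference was -4.45 without the first non-transduced array (limma, adjusted p = 0.0124, the group then resting on 1 array and 2191 of 19505 genes passing the adjusted threshold) and -1.42 without the second. The mean of the muscle markers was also lowest on the second uninduced array and highest on the second non-transduced array, and its part in the Camk2a differences was not tested.

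Camk2b encodes the beta chain, a CaMKII isoform that binds actin filaments and is also found in skeletal muscle. Its log2 signal was 8.24 and 11.13 with MyoD + Dox, 5.91 and 5.75 uninduced and 5.67 and 7.69 non-transduced. Only 3 arrays were above background, both MyoD + Dox arrays and the second non-transduced array. Camk2b also had the widest spread within the MyoD + Dox pair, 7.41-fold, against 1.90-fold for Camk2a.

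The mean Camk2b signal of 9.69 ± 2.04 (SD, n = 2) with MyoD + Dox stood against 5.83 ± 0.11 (SD, n = 2) uninduced, a log2 difference of 3.86 with a standard error of 1.06 and an interval of 1.25 to 6.47 (limma, unadjusted p = 0.0114, adjusted p = 0.670). Both uninduced arrays were below background, so that group was not measured. Set against the background of those arrays, the MyoD + Dox mean was 12.6-fold higher, a value that does not cover the spread between the MyoD + Dox arrays. Leaving out the first MyoD + Dox array moved the log2 difference to 5.30 and leaving out the second to 2.41. Against non-transduced cells the difference was 3.01, with an interval of 0.40 to 5.61, 8.03-fold (limma, unadjusted p = 0.0305, adjusted p = 1), and both MyoD + Dox arrays again lay above. Leaving out the first non-transduced array gave 2.00 and leaving out the other 4.01, while dropping either MyoD + Dox array gave 4.45 (first) or 1.56 (second). Uninduced cells, not above background, lay at least 1.57-fold below the mean of the non-transduced arrays, of which only the second was above background. The groups overlapped, with the first non-transduced array the lowest of the 6, and without the second non-transduced array the fitted difference turned from -0.85 to 0.16, so its direction rests on that array.

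Among the members whose promoter windows were searched, Camk2b and Rcan1 differed by more than 0.9 on the log2 scale between MyoD + Dox and uninduced cells. Camk2a, which differed by 4.29, was not searched. The 250 bases before each start are printed 5′ to 3′ in the direction of the gene, from RefSeq on build GRCm38.p6, with any match to the core that NFAT factors bind, GGAAA or its reverse complement TTTCC, in capitals. Camk2b lies on the minus strand with this stretch at chr11:6065749-6065998, and Rcan1 on the minus strand with its first start at chr16:92466170-92466419 and its second, internal start at chr16:92400079-92400328.
Camk2b: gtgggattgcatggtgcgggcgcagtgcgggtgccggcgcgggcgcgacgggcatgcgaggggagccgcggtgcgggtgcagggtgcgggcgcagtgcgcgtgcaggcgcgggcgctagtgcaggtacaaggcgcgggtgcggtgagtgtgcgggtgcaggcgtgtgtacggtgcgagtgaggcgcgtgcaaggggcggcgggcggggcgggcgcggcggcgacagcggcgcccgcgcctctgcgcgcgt
Rcan1 start 1: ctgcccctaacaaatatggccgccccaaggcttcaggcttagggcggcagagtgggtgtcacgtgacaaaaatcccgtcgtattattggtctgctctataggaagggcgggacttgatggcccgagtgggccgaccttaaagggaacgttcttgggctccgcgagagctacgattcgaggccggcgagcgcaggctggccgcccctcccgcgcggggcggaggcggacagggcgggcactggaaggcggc
Rcan1 start 2: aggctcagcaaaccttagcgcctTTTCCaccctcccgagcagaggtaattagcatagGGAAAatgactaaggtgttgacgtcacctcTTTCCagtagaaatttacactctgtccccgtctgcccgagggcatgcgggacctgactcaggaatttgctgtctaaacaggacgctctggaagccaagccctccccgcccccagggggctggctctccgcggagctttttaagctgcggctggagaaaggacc

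The Camk2b stretch was 78.4% G and C and held no NFAT core and no E-box (CANNTG, a motif that MyoD and its relatives bind), while 55.6% of the 32851 promoter windows of the same length held the NFAT core and 66.2% an E-box, both strands searched. Before the second start of Rcan1 stood 3 NFAT cores, which begin 227, 193 and 163 bases ahead of it, a count of 3 or more that 6.39% of windows share. The first start of Nfatc2, a gene below background on every array, also had 3, at 239, 200 and 175 bases. The stretch before the first start of Rcan1 held no NFAT core and had 1 E-box, with the letters CACGTG. The stretch before its second start had no E-box. Of the E-boxes with a GC core (CAGCTG, in 13.0% of windows), 1 lay before each of the 2 starts of Hdac9, while the window of Hdac4 held none of the letters searched. Windows of 7 members, with 10 starts in all, were searched, and those of Camk2a, Camk2g and Nfatc1 were not. These matches describe the letters only, and the array does not tell which Rcan1 start its probe set reads.

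Rcan1, whose shorter transcript from the internal start is a known target of calcineurin and NFAT, had log2 signals of 9.54 and 9.82 with MyoD + Dox, 8.79 and 8.62 uninduced and 8.50 and 10.12 non-transduced. The MyoD + Dox arrays lay above the uninduced arrays without overlap, and the non-transduced pair held both the lowest and the highest of the 6 arrays. Its mean of 9.68 ± 0.20 (SD, n = 2) exceeded the uninduced mean of 8.71 ± 0.12 (SD, n = 2) by 0.97 with a standard error of 0.52 and an interval of -0.31 to 2.26, 1.96-fold (limma, unadjusted p = 0.113, adjusted p = 0.688). The non-transduced mean was 9.31 ± 1.15 (SD, n = 2), and MyoD + Dox lay 0.37 above it with an interval of -0.92 to 1.66. Without the first non-transduced array this difference was -0.44, and without the second 1.18. The uninduced mean lay 0.60 below the non-transduced mean, and here too the sign rested on the array left out, at -1.41 without the first (limma, adjusted p = 0.0244, in that fit of 2191 called genes) and 0.21 without the second.

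Camk2d and Camk2g encode the delta and gamma chains, which are made in most tissues, delta being the main form of the heart. Camk2d signals were 13.64 and 13.45 with MyoD + Dox, 13.51 and 14.14 uninduced and 13.70 and 13.34 non-transduced. The 3 groups overlapped, and the difference of -0.28 between MyoD + Dox and uninduced cells had an interval of -0.99 to 0.42 (limma, adjusted p = 0.792), against 0.02 for MyoD + Dox and 0.31 for uninduced cells compared with non-transduced cells.

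Camk2g signals were 12.49 and 12.18 with MyoD + Dox, 12.14 and 12.11 uninduced and 12.16 and 11.73 non-transduced. Both MyoD + Dox arrays were the highest of the 6, by 0.015 over the next array, so the order rests on a gap smaller than the 0.31 between the 2 MyoD + Dox arrays. The difference from uninduced cells was 0.21 with an interval of -0.39 to 0.80 (limma, adjusted p = 0.815), and the difference from non-transduced cells was 0.39 with an interval of -0.21 to 0.98. Both intervals hold 0 and leave room for a difference of up to 1.74-fold and 1.97-fold.

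Nfatc1 and Nfatc2 encode factors that calcineurin sends to the nucleus; in mouse muscle Nfatc1 is known for fibre type and Nfatc2 for the growth of myotubes by fusion. Nfatc1 signals were 8.13 and 7.94 with MyoD + Dox, 8.40 and 8.60 uninduced and 8.12 and 7.31 non-transduced. Both uninduced arrays were the highest of the 6, the opposite place from the one they held for Camk2a, where they were the lowest. The uninduced mean of 8.50 ± 0.14 (SD, n = 2) lay above the non-transduced mean of 7.71 ± 0.58 (SD, n = 2) by 0.78 with an interval of 0.01 to 1.55, 1.72-fold (limma, unadjusted p = 0.0477, adjusted p = 0.637). Without the first non-transduced array it was 1.19 (limma, adjusted p = 0.0357, again with 2191 genes called), and without the second 0.37. MyoD + Dox, at 8.03 ± 0.14 (SD, n = 2), lay below uninduced cells by 0.46, with an interval of -1.23 to 0.31 for the signed difference (limma, adjusted p = 0.712), and 0.32 above non-transduced cells, which became 0.73 on dropping the first non-transduced array and -0.09 on dropping the second.

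Nfatc2 signals ran from 3.06 to 3.69 and were below background on all 6 arrays. No fold is given for it, and its differences, which enter the counts and medians over members, are between signals below background. Its transcript was not detectable at this signal, which does not show that it is absent.

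Hdac4 and Hdac9 were the class IIa deacetylases among the members with a measured signal. Hdac4, which in mouse muscle links lost nerve supply to the genes of the synapse, had signals of 7.65 and 7.53 with MyoD + Dox, 7.47 and 7.74 uninduced and 7.49 and 6.79 non-transduced. Its difference between MyoD + Dox and uninduced cells was -0.02 with an interval of -0.73 to 0.69 (limma, adjusted p = 0.990), a value whose sign turned to 0.01 when array medians were subtracted, to 0.12 without the second uninduced array and to 0.04 without the second MyoD + Dox array. MyoD + Dox lay above non-transduced cells by 0.45, with an interval of -0.26 to 1.16 and no overlap. The second non-transduced array was the lowest of the 6, and the difference was 0.10 without it and 0.80 without the first.

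Hdac9, which also gives a short form without the deacetylase domain known as a MEF2 repressor, had signals of 9.32 and 9.08 with MyoD + Dox, 8.99 and 9.26 uninduced and 9.41 and 9.43 non-transduced. Its 6 values spanned 0.44, the narrowest span of the members, and both non-transduced arrays were the highest. The difference of 0.08 between MyoD + Dox and uninduced cells had an interval of -0.44 to 0.59 (limma, adjusted p = 0.927). Compared with non-transduced cells, MyoD + Dox differed by -0.22 with an interval of -0.74 to 0.29 and uninduced cells by -0.30 with an interval of -0.81 to 0.22, both without overlap.

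**Figure D2:**
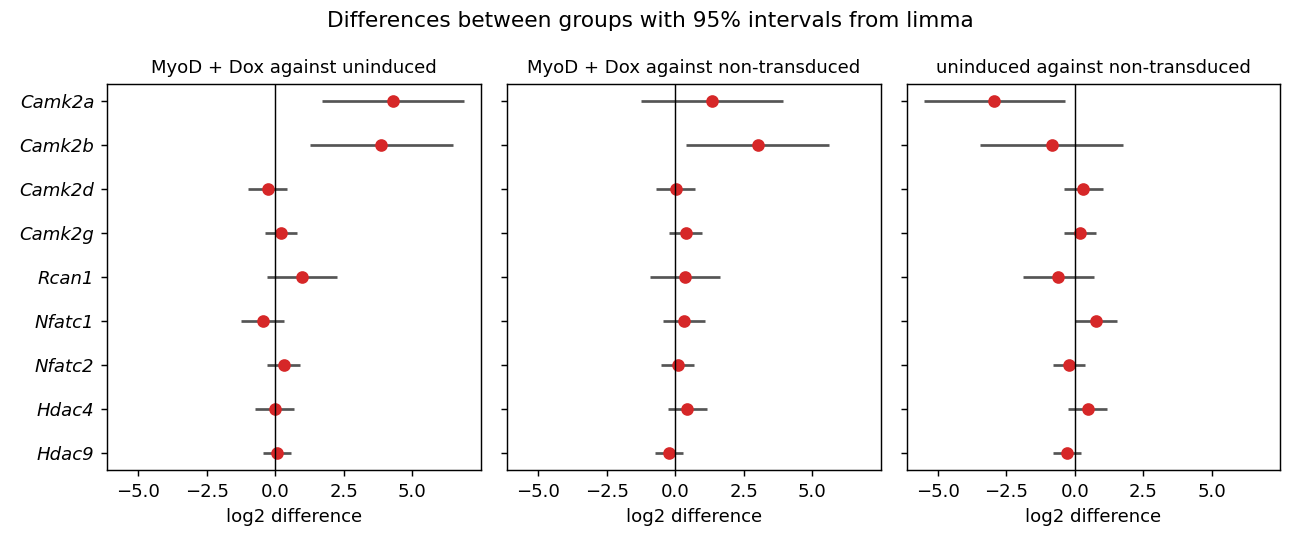
Difference in mean log2 signal between groups for each measured member, with 95% intervals from limma, in the 3 comparisons (MyoD + Dox minus uninduced, MyoD + Dox minus non-transduced, uninduced minus non-transduced). The intervals of Camk2a and Camk2b exclude 0 in the first panel, that of Camk2b in the second, and those of Camk2a and Nfatc1 in the third; no member passed the adjusted threshold.

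Counted over the members, 6 of 9 had a higher mean with MyoD + Dox than in uninduced cells and 3 a lower one, with a median difference of 0.21 against -0.01 over all genes. At an unadjusted p of 0.05 in limma, 2 members passed as higher, Camk2a and Camk2b, and 0 as lower, where 4.22% of all genes passed as higher and 3.19% as lower. Both MyoD + Dox arrays lay above both uninduced arrays for 4 members, Camk2a, Camk2b, Camk2g and Rcan1, and below for 1, Nfatc1, against 23.8% and 24.8% of all genes. Without the second uninduced array neither Camk2a, just short of the threshold, nor Camk2b passed (limma, unadjusted p = 0.0562 for Camk2b).

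Against non-transduced cells, 8 members had a higher mean with MyoD + Dox and 1 a lower one, with a median of 0.37 against 0.00 over all genes. Unadjusted, Camk2b passed as higher and no member as lower, against 1.6% and 1.34% of all genes, and after adjustment no gene passed (0% called, lowest adjusted p = 1 in limma). The arrays did not overlap in 3 members that lay higher, Camk2b, Camk2g and Hdac4, and in 1 that lay lower, Hdac9, where 13.9% and 14.3% of all genes had that order. Camk2b and Camk2g were the members with both MyoD + Dox arrays above all other 4 arrays, which 6.08% of genes showed, and no member was below them all, which 6.13% showed; for Camk2b the gap was 0.55.

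Between uninduced and non-transduced cells, 4 members had a higher mean in uninduced cells and 5 a lower one, with a median of -0.21. Nfatc1 passed an unadjusted p as higher and Camk2a as lower, where 3.11% and 3.12% of all genes did, and after adjustment 0% did. Nfatc1 did not overlap as higher, and Camk2a and Hdac9 did not as lower, against 19.2% of all genes in each direction. These 3 comparisons share arrays, so their values for a member are not independent of each other. An exact permutation of 2 arrays against 2 reaches no two-sided p below 0.333, so only the fit across all genes was used.

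**Figure D3:**
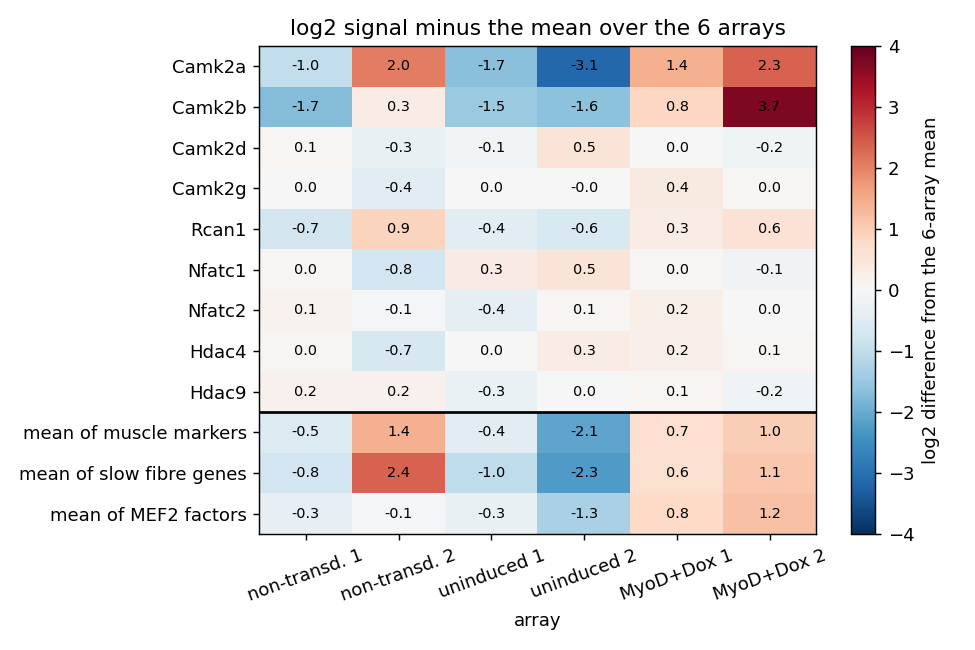
Log2 signal on each array minus the mean over the 6 arrays, for the 9 members and for the mean of the muscle markers, the slow fibre genes and the MEF2 factors (colour and printed value, log2 units). Camk2a follows the order of the muscle marker mean only in part: both are lowest on the second uninduced array, but the marker mean is highest on the second non-transduced array and Camk2a on the second MyoD + Dox array.

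For likeness to Camk2a over the 6 arrays, 9979 genes above background on at least 1 array were ranked. Genes with provisional names and olfactory and vomeronasal receptors were passed over. The most alike were Psmc3 with a Pearson r of 0.998, Myl6b with 0.997, Pgam2 with 0.996, Trim72 with 0.996 and Itgb6 with 0.996. Psmc3 encodes a proteasome subunit, Myl6b a myosin light chain, Pgam2 the muscle phosphoglycerate mutase, Trim72 a membrane repair protein and Itgb6 an integrin subunit. Trim72, for example, had log2 signals of 13.74 and 14.52 with MyoD + Dox, 10.48 and 8.18 uninduced and 11.07 and 14.28 non-transduced, which is the array order of Camk2a. For Camk2b the closest were Atp13a3 with 0.989, Phldb2 with 0.988, Ccnt1 with 0.988, Lmbrd2 with 0.988 and Zfp800 with 0.986, none of them a sarcomere gene, with Camk2b and each of them highest on the second MyoD + Dox array. These values rest on 6 arrays in 3 groups and describe the likeness of patterns only.

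Other genes of the same pathways were taken from lists, and none of their members passed the adjusted threshold in any comparison. In MyoD + Dox against uninduced cells, the upstream part of the pathway held mostly small differences. The calmodulin genes Calm2 and Calm3 had differences of -0.70 and -0.39, both without overlap, where 24.8% of all genes lay lower in that way. From non-transduced cells they differed by -0.02 and 0.25, with overlap. Of 6 measured other CaM kinase genes, 4 were above background and none passed an unadjusted p against uninduced cells. The most different in that comparison was Camkk2, a kinase that activates other CaM kinases, at -0.81, followed by Camk1d at -0.73. Camk2n1, an inhibitor of CaMKII, differed by 0.12.

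Calcineurin subunit genes had a median difference of -0.03 over 5 members. Ppp3ca, the alpha catalytic subunit, had log2 signals of 14.61 and 14.44 with MyoD + Dox, 15.05 and 15.61 uninduced and 14.96 and 12.48 non-transduced. Its difference from uninduced cells was -0.80 with a standard error of 0.77, and the second non-transduced array lay far below the other 5. Ppp3cb, the beta catalytic subunit, differed by 0.23 and ranged only from 14.87 to 15.34.

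Among 7 measured calcineurin regulators, 1 passed an unadjusted p as higher and 0 as lower, against 4.22% and 3.19% of all genes. Without overlap, 2 lay higher and 3 lower, against 23.8% and 24.8% of all genes, and the median was -0.14. The gene that passed was Myoz2, which encodes a Z-disc protein that binds calcineurin. Its signals were 14.61 and 14.39 with MyoD + Dox, 11.59 and 9.18 uninduced and 12.42 and 15.98 non-transduced. The difference from uninduced cells was 4.12 with a standard error of 1.28, 17.4-fold (limma, unadjusted p = 0.0194, adjusted p = 0.670), close in size to that of Camk2a, and that from non-transduced cells was 0.30. Cabin1, an inhibitor of calcineurin, differed from uninduced cells by -0.67 without overlap. Rcan2, the relative of Rcan1, was singled out after its values were seen: its signals of 7.98 and 8.59 with MyoD + Dox were below 9.14 and 8.73 uninduced and 9.43 and 9.41 non-transduced. The Rcan2 difference was -0.65 from uninduced and -1.14 from non-transduced cells (limma, unadjusted p = 0.0625 and 0.00741, adjusted p = 0.677 and 1), while the Rcan1 differences were 0.97 and 0.37, the latter turning to -0.44 without the first non-transduced array.

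The other NFAT genes did not pass: Nfat5, which responds to osmotic stress and lacks the calcineurin site, differed by -0.61 with a standard error of 0.59, and Nfatc3 by -0.09. All 5 kinases that act on NFAT had both MyoD + Dox arrays above both uninduced arrays, against 23.8% of all genes, with a median of 0.40, and none passed an unadjusted p. Dyrk2 was the most different of them, with 11.44 and 11.74 against 10.80 and 9.43, a difference of 1.47 with a standard error of 0.65 (limma, unadjusted p = 0.0649, adjusted p = 0.677). Dyrk1a followed at 0.54. On the non-transduced arrays Dyrk2 was at 10.68 and 12.25, on either side of the MyoD + Dox arrays, and the median of the 5 against that group was -0.02.

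**Figure D4:**
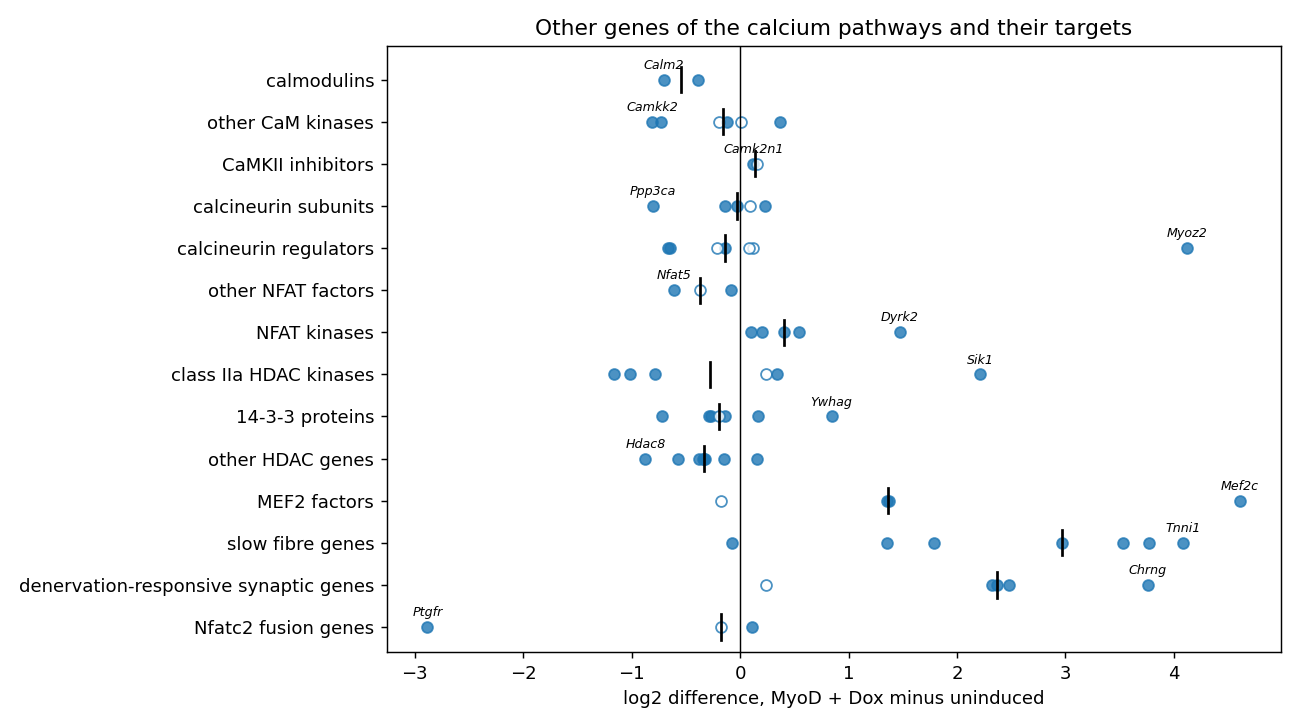
Log2 difference, MyoD + Dox minus uninduced, of each measured gene of the pathway lists. Each circle is a gene, open where the gene was below background on all 6 arrays, and black bars are list medians; calcineurin subunits centre on -0.03, while MEF2 factors, slow fibre genes and denervation-responsive synaptic genes have medians of 1.36, 2.97 and 2.37.

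Kinases of the class IIa deacetylases went both ways. Sik1 had signals of 12.50 and 13.21 with MyoD + Dox, 11.23 and 10.05 uninduced and 11.06 and 13.64 non-transduced, a difference from uninduced cells of 2.21 with a standard error of 0.88 (limma, unadjusted p = 0.0475, adjusted p = 0.670). Sik2 had 10.57 and 10.26 against 11.33 and 11.81, a difference of -1.16 (limma, unadjusted p = 0.0528, adjusted p = 0.672). Of the 7 genes for 14-3-3 proteins, 6 of them above background, Ywhag differed by 0.84 and Ywhaq by -0.72, the latter at an unadjusted p of 0.0224 in limma. The 8 measured deacetylase genes outside the member set had a median of -0.34, and 6 lay without overlap below uninduced cells, against 24.8% of all genes, Hdac8 at -0.87 and Hdac11 at -0.57 being the most different. Against non-transduced cells the median of those 8 was 0.02. Hdac7, a further class IIa deacetylase that is counted among these 8 and was named after its values were seen, had 6.80 and 6.64 with MyoD + Dox, 6.50 and 7.23 uninduced and 7.34 and 5.34 non-transduced, a range of 2.00 over arrays of which 5 were above background, and it differed from uninduced cells by -0.15 with an interval of -1.76 to 1.47.

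MEF2 factors, the partners that class IIa deacetylases hold down, had a median of 1.36. Mef2c, at 12.76 and 13.28 with MyoD + Dox, 10.03 and 6.79 uninduced and 10.18 and 7.96 non-transduced, had both MyoD + Dox arrays above the other 4, with a difference of 4.61 from uninduced and 3.95 from non-transduced cells (limma, unadjusted p = 0.00858 and 0.0164, adjusted p = 0.670 and 1). From uninduced cells Mef2d differed by 1.37 and did not pass (limma, unadjusted p = 0.0717). Mef2a, named after its values were seen because it passed an unadjusted p, differed by 1.35. Of the 4 factors 2 passed as higher in this comparison, where 4.22% of all genes did. From non-transduced cells Mef2d and Mef2a differed by 0.21 and 0.42, both with overlap, and the list median was 0.32. Hdac4 and Hdac9, on the same arrays, differed from uninduced cells by -0.02 and 0.08.

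Genes known to lie downstream were taken in 3 lists. Of 7 slow fibre genes, 3 passed an unadjusted p as higher and 6 did not overlap, against 4.22% and 23.8% of all genes, with a median of 2.97. Of the 10 general muscle markers 8 passed as higher and 9 did not overlap, with a median of 2.29. Tnni1, the slow troponin I, differed by 4.09 and passed. Mb, myoglobin, differed by 3.77 and did not pass (limma, unadjusted p = 0.0718). Ppargc1a in the slow fibre list, named after its values were seen, differed by -0.08. The mean of this list was 13.21 and 13.64 with MyoD + Dox, 11.57 and 10.30 uninduced and 11.80 and 14.93 non-transduced, so that its highest array was again the second non-transduced array, and its median against non-transduced cells was 0.26. Of 5 synaptic genes that respond to denervation, 3 passed an unadjusted p as higher than in uninduced cells, against the same 4.22%, with a median of 2.37. Of these 5 genes, 2 are also among the muscle markers. Chrng, the fetal acetylcholine receptor subunit, differed by 3.76 and Musk, the receptor kinase of the synapse, by 2.48, while Dach2 was below background. From non-transduced cells Chrng differed by 0.74 and Musk by 0.73, both with overlap, and the list median was 0.53. Among the genes tied to Nfatc2 in mouse muscle fusion, Il4 was below background and Il4ra differed from uninduced cells by 0.11. Ptgfr, a prostaglandin receptor, had 9.00 and 6.82 with MyoD + Dox, 10.68 and 10.91 uninduced and 9.78 and 4.92 non-transduced. The difference of -2.88 for Ptgfr had a standard error of 1.58 and did not pass (limma, unadjusted p = 0.120, adjusted p = 0.688).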

How the data were processed

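Gene expression was measured in C2C12 cells on 6 Clariom S arrays, grouped by the labels as 3 groups of 2. Signal intensity per probe set, linear and normalized between arrays, was deposited by the authors. The submitters' notes name Affymetrix Expression Console and the methods the Transcriptome Analysis Console; no source read here says which made the table or on which genome build. The labels name Trizol extraction and the methods a column kit.

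Of 28846 probe sets, 19572 had 1 gene symbol and 9274 none; for the 55 genes with several probe sets the one with the highest mean was kept, leaving 19505 genes. All 9 measured members had 1 probe set each. The design provided for log2 of linear values, so log2 of the deposited intensity was tested with limma 3.58.1 in R 4.3.3 (lmFit, eBayes, two-sided) on all 6 arrays (3 residual degrees of freedom). Each of the 3 comparisons was adjusted by Benjamini-Hochberg over all genes. No dim gene was left out. For a gene not above background in a group, only a bound is given: the brighter mean was set against the per-array higher of the background and its own signal. The number of arrays limits the precision. The steps were tested on simulated data.

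Members, gene lists, motifs and tests were chosen with earlier results of these data known. Named genes are the members, per list the 2 most different in MyoD + Dox against uninduced cells among those above background, and the 5 genes most like each of Camk2a and Camk2b. Promoter windows were taken from RefSeq. Alternatives were other normalizations, filters and variance models, 4 arrays alone, a replicate block, the methods' t-test and leaving out each array.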

Additional observations from a re-analysis of the deposited data

How the results depend on the processing

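Of 27 member differences, 14 kept their sign in all alternatives run and 13 turned in at least 1 of the 16. Many of these alternatives could not turn a sign, because they left the fitted differences unchanged. They were the filter on dim genes, the other variance model, the 4 arrays alone and both replicate blocks. Probe set means, the methods' t-test and dropping an array of the group not compared did the same. A kept sign was tested only by scaling, by raising signals to background and by dropping a compared array. By how arrays were scaled, only Hdac4 between MyoD + Dox and uninduced cells turned, to 0.0133 with array medians subtracted. All other turns came from leaving out an array. Over those settings MyoD + Dox against uninduced cells gave -0.60 to 0.0315 for Camk2d, -0.15 to 0.12 for Hdac4 and -0.0551 to 0.21 for Hdac9. Against non-transduced cells MyoD + Dox gave -0.16 to 2.87 for Camk2a, -0.16 to 0.20 for Camk2d, -0.0894 to 0.73 for Nfatc1, -0.0225 to 0.21 for Nfatc2 and -0.44 to 1.18 for Rcan1. For uninduced against non-transduced cells the values were -1.86 to 0.16 for Camk2b, -0.00836 to 0.62 for Camk2d, -0.0395 to 0.40 for Camk2g, -0.43 to 0.0121 for Nfatc2 and -1.41 to 0.21 for Rcan1.

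In MyoD + Dox against uninduced cells, Camk2a lay between 3.55 and 5.03 over the 16 alternatives and passed an unadjusted p in 15. Camk2b lay between 2.41 and 5.30 and passed in 14. The 16 are not separate checks of this comparison. Leaving out either non-transduced array gave the same fit as the 4 arrays alone. Probe set means repeated the main differences, as each member had 1 probe set. The count of 2 members fell to 0 without the second uninduced array, and leaving out arrays gave counts of 0 to 3, the 3 being reached without either non-transduced array. Adjusted p for Camk2a ran from 0.0591, with the 4 arrays of the comparison alone, to 0.999. For MyoD + Dox against non-transduced cells the unadjusted count of 1 was 0 with signals raised to the array background, with 4 arrays alone and with the methods' t-test, 2 with the replicate block and the uninduced numbers crossed, and 0 to 3 with an array left out (3 without the second non-transduced array, 2 without the first, 0 without either uninduced or the second MyoD + Dox array). For uninduced against non-transduced cells the unadjusted count of 2 was 1 with quantile normalization, medians subtracted, the lowest 40% of genes left out, trend and robust eBayes, or the replicate block. It was 0 with signals raised to background, 4 arrays alone or the methods' t-test, and 0 to 4 with an array left out (4 when the first non-transduced array was dropped, 1 without the first uninduced, 0 without any of the 4 others). The adjusted count of 0 for that comparison ran from 0 to 3 on leaving out arrays, the 3 being Camk2a, Nfatc1 and Rcan1 once the first non-transduced array was dropped, a fit in which 2191 of 19505 genes were called. The cause of these moves was not tested.

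Deviations of same-numbered arrays correlated at -0.05 between MyoD + Dox and uninduced, 0.41 between MyoD + Dox and non-transduced and -0.34 between uninduced and non-transduced cells. With 2 arrays in each group, these values cannot tell whether same-numbered arrays were handled together. With the replicate block, the count of members past an unadjusted p in uninduced against non-transduced cells was 1 and the other counts kept within 1.5 times; the crossed pairing was chosen after seeing the data. Nfatc2 was left out with the lowest 40% of genes. Where leaving out an array left 1 in a group, that array was assumed to vary like the others. No group is large enough for a test of outlying arrays, and signals near background, as for Camk2b in uninduced cells, are not measured well enough to rank.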
